A study of Mus musculus with 32 samples.

Results

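Newborn wild-type mice that breathed 100% oxygen (hyperoxia) for the first 5 days of life were compared with wild-type mice kept in room air over the same days. The comparison rests on 6 of the 32 arrays of the series, chosen by their titles: 3 arrays of hyperoxia lungs and 3 of air lungs, all from Gsr wild-type (WT) C3H/HeN mice at postnatal day 5 (P5). The series asks how loss of glutathione reductase, the enzyme encoded by Gsr, changes the lung before birth, in neonates given oxygen and in adults. Its 10 groups hold embryonic day 19 lungs of both genotypes, with 4 arrays each, and P5 and P56 lungs of either genotype after hyperoxia or air between P0 and P5, with 3 arrays each. Besides the WT P5 groups, the text uses KO (Gsr knockout) P5 hyperoxia and air lungs, and WT lungs taken at P56 after the same hyperoxia or air exposure. The pups were exposed with their dams, each array was counted as RNA of part of 1 mouse's lung, and P5 lungs were taken when the exposure ended. The KO mice lack the enzyme in the whole body. The targeted gene bears out the labels as far as group means go: Gsr read 781, 925 and 889.5 in WT hyperoxia lungs and 509.5, 498 and 889.8 in WT air lungs, and its mean was 154 in KO hyperoxia lungs and 156 in KO air lungs.

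Oxygen at this concentration forms reactive oxygen species in lung cells. DNA damage stabilises the transcription factor p53, whose targets stop the cell cycle and promote repair or cell death, and oxidants and electrophiles release NRF2, whose targets make glutathione and detoxify. Stress kinases switch on the immediate early genes, a set of transcription factors and signalling regulators that is transcribed without new protein synthesis. The mouse lung at this age is in its saccular to alveolar phase, when septa form from fibroblasts that carry the receptor PDGFRA, and hyperoxia is a common model of the disturbed alveolar growth of preterm infants.

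Several arrays stood apart, which touches most results. WT air replicate 3 correlated best with a hyperoxia array, replicate 3 (r = 0.986 over all tested genes, log2 values), and its level of p53 targets was 0.51, where a list level is the mean log2 value of the list after each gene is centred on its mean over 32 arrays. The hyperoxia arrays had 0.54, 0.49 and 0.47 and the other air arrays -0.22 and -0.20. The called genes and the gene lists are given with all arrays and, where their values move, without air replicate 3, an array that was singled out by this level in earlier results of these data, so that its effect on p53 targets is no independent finding. Liver transcripts were lower on all 3 hyperoxia arrays than on any air array, with levels of 0.52, -0.50 and -0.51 in hyperoxia against 3.31, 2.37 and 1.31 in air, and air replicate 1 also carried squamous epithelium and striated muscle transcripts. The log2 3'/5' ratio of the control probe sets was 0.78 in hyperoxia replicate 1 and 0.32 to 0.43 in the other WT P5 arrays. Of the arrays outside P5 that share the estimate of the spread, KO E19 replicate 1 had a log2 3'/5' ratio of 4.27 and WT P56 hyperoxia replicate 2 one of 2.81. The Y-linked Eif2s3y read 2325, 2111 and 1873 in hyperoxia and 2132, 256 and 2174 in air, and the X-inactivation transcript Xist read 332, 179 and 5229 in hyperoxia and 235, 8406 and 588 in air, so air replicate 2 differed in both and hyperoxia replicate 3 was high in both. Sex is not among the labels, and whether hyperoxia replicate 3 held RNA of more than 1 mouse was not tested. Markers of the labelled tissue were present on all 6 arrays: the type 2 cell surfactant gene Sftpc read 19208, 15318 and 12636 in hyperoxia and 18829.5, 14573 and 15607 in air, and the type 1 cell gene Ager read 21936, 17994 and 17768 in hyperoxia and 19839.5, 15943 and 19209 in air.

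Values are array intensities on a linear scale, with 1 probe set per gene, the one with the highest mean over all arrays, and 13345 genes passed the filter on low values. A log2 change is the hyperoxia mean minus the air mean of log2(intensity + 26.3), an offset that makes the changes of dim genes smaller, and its test comes from limma fitted to all 32 arrays. A gene is called where its Benjamini-Hochberg adjusted p lies under 0.05. Of the 13345 genes 22 passed the filter only through the hyperoxia arrays and 42 only through the air arrays.

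In the fit that gives every array equal weight, few genes changed beyond the spread between arrays once all genes were accounted for. With all arrays limma called 1 gene higher in hyperoxia, 0.00749% of those tested, and 0 lower. At an unadjusted p under 0.05 there were 409 genes, 191 higher (1.43%) and 218 lower (1.63%). The hyperoxia and air arrays did not overlap for 973 genes that read higher in hyperoxia (7.29%) and 1320 that read lower (9.89%). The counts of such genes per list below are to be read beside these shares. Without air replicate 3 limma called 7 genes, all higher (0.0525%), and 658 genes had an unadjusted p under 0.05, 336 higher (2.52%) and 322 lower (2.41%). The number of calls depended on how the arrays enter the fit. With each array weighted by its own spread, limma called 3236 genes, and 2922 without air replicate 3. In the weighted fit of all arrays the weights were 0.577, 10.4 and 1.71 in WT P5 hyperoxia and 1.28, 3.99 and 0.632 in WT P5 air. The 3236 calls thus rest mostly on replicate 2 of each group. The lowest weights of the series were on KO E19 replicate 1 (0.0468) and WT P56 hyperoxia replicate 2 (0.0937). With these 2 arrays left out and equal weights for the rest, it called 1 gene, and 11 without air replicate 3, while 725 and 1134 genes had an unadjusted p under 0.05. With 3 arrays against 3, an exact permutation of the arrays of 1 gene could not go below p = 0.1, so the calls draw on the spread estimated over all groups.

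The gene called with all arrays was Chodl, which encodes chondrolectin, a membrane protein of the C-type lectin family. Chodl (chromosome 16) read 390.3, 523 and 553 in hyperoxia lungs, against 155, 183 and 243 in air lungs. Every hyperoxia array lay above every air array, air replicate 3 included. The means were 489 ± 86.6 in hyperoxia and 194 ± 44.6 in air (SD, n = 3 each), and the log2 change was 1.23 (SE 0.21, limma adjusted p = 0.0392). Without air replicate 3 it was 1.39 (limma adjusted p = 0.00995). The gene rose in KO lungs too, by 1.60 (SE 0.21, limma adjusted p = 0.000237). The KO means come from other arrays than the WT means, but both tests share 1 estimate of the spread. In WT lungs at P56 its log2 change was -0.30. The P56 means were 60.6 in air and 44.8 in hyperoxia, both under 100.4, the median of all values in the series. In 13 of 20 other fits Chodl was no longer called, with adjusted p of 0.0548 to 0.872, among them fits with other filters and scalings and those that left out hyperoxia replicate 2 or 3 or air replicate 1 or 2.

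**Figure D1:**
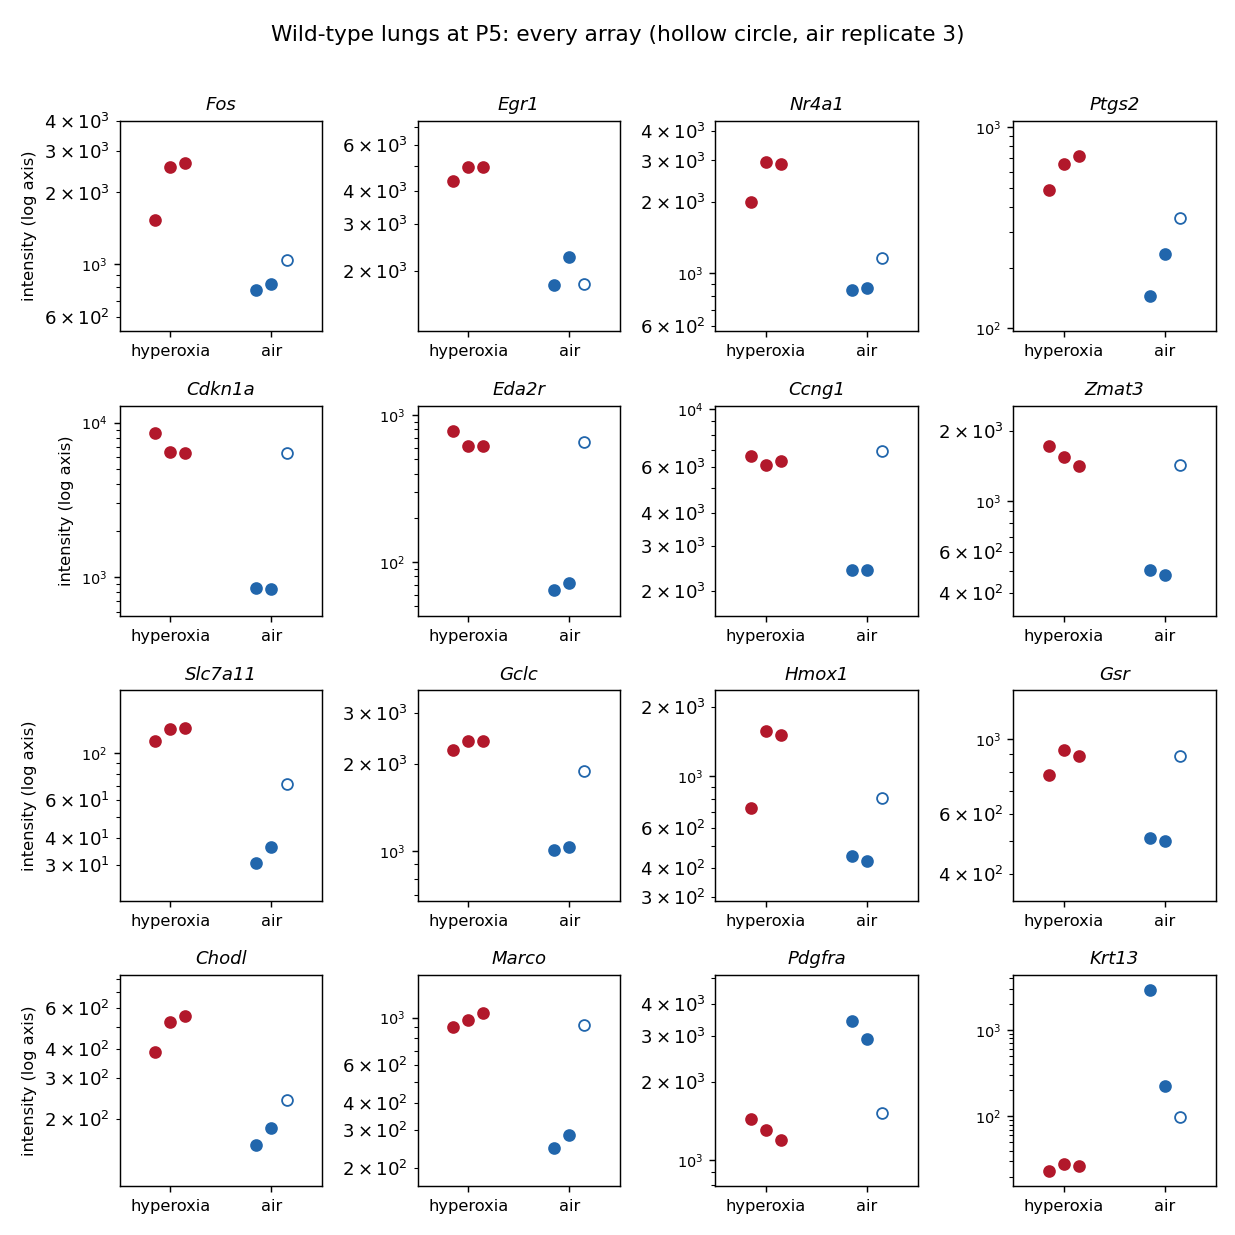
Intensity on a log axis of 16 genes on each of the 6 arrays, with hyperoxia (red) left of air (blue) and air replicate 3 as a hollow circle. For Fos, Egr1, Nr4a1 and Chodl the hollow circle lies with or nearer to the other air arrays, and for Ptgs2 it lies between the groups. For Cdkn1a, Eda2r, Ccng1, Zmat3, Gsr and Marco it lies at the level of the hyperoxia arrays.

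The level of immediate early genes was higher in each of the 3 exposed lungs than in any of the 3 air lungs. Of 35 listed genes 33 were tested, and 11 were higher in hyperoxia at an unadjusted p under 0.05 and 0 lower, with and without air replicate 3. None was called over all genes. The groups did not overlap for 19 members that read higher (57.6%) and 2 that read lower (6.06%), against 7.29% and 9.89% of all genes. The median log2 change was 0.33, beside -0.02 over all genes tested. The list level was 0.03, 0.27 and 0.21 in hyperoxia and -0.31, -0.31 and -0.23 in air.

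Fos and Fosb encode partners of JUN in the AP-1 transcription factor. Fos read 1532, 2559.8 and 2673 in hyperoxia, against 781, 824 and 1041 in air, with no overlap between the groups (log2 change 1.30, SE 0.26, limma adjusted p = 0.255). Fosb read 112, 225 and 175 in hyperoxia and 53.6, 56.6 and 43.3 in air (log2 change 1.31, SE 0.29), and its 3 air values lay under 100.4, the median of all values in the series. For both genes hyperoxia replicate 1 had the lowest value of the exposed lungs. Egr1 and Egr3 encode zinc finger transcription factors of a growth factor and stress response. Egr1 read 4368, 4927 and 4940.3 in hyperoxia and 1764, 2246 and 1778 in air (log2 change 1.29, SE 0.30), and air replicate 3 was close to the lowest value. Egr3 read 263, 399 and 366 in hyperoxia and 132, 128 and 155 in air (log2 change 1.15, SE 0.33).

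Nr4a1, an orphan nuclear receptor gene, read 1999, 2948 and 2895 in hyperoxia and 851, 864 and 1158 in air (log2 change 1.42, SE 0.51). Dusp1, whose product removes phosphate from the stress kinases, read 3459, 4748 and 5073 in hyperoxia and 2335, 2122 and 3115 in air (log2 change 0.80, SE 0.25). Both genes were separate between the groups. The stress-induced repressor Atf3 was at a log2 change of 0.66, the zinc finger factor Klf6 at 0.30, the growth inhibitor Btg2 at 0.52, the nuclear factor Csrnp1 at 0.68 and Ccn2, a secreted matrix protein gene, at 0.42. Jun, the AP-1 core gene, read 3561, 3683 and 3698 in hyperoxia and 3879, 3239 and 3137 in air, and the groups overlapped. Ptgs2, which encodes the inducible cyclooxygenase of prostaglandin synthesis, is not on the list. It read 483, 653 and 715 in hyperoxia and 145, 234 and 351 in air (log2 change 1.31, SE 0.36). Hyperoxia over air, as a ratio of mean intensities, was 2.56 for Fos, 3.33 for Fosb, 2.46 for Egr1, 2.73 for Nr4a1 and 2.54 for Ptgs2.

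The place of air replicate 3 can be counted. Hyperoxia lay above both other air arrays for 24 of the 33 immediate early genes, and air replicate 3 reached the lowest hyperoxia value in 5 of these 24. The same count was 1131 of 2104 over all genes, 17 of 22 for p53 targets, 15 of 25 for NRF2 targets and 14 of 15 for macrophage genes. Fewer of the immediate early genes than of the p53 or NRF2 targets thus had an air value inside the exposed range on that array, a description with no test, since the array was chosen by its p53 level. The cause of the difference between arrays was not tested.

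The promoter of Dusp1 is shown because it holds the cAMP response element, a site through which stress kinases act on several immediate early genes. RefSeq promoters (250 bases before to 50 after each start, GRCm38.p6) were found for 27 of the 33 genes, and both strands were searched. The element TGACGTCA was in a promoter of 3 of the 27 (11.1%), against 3.36% of the 10729 tested genes with a promoter and 2.03% of all 27025 genes with one. The CArG box, the serum response site, was in 3 of 27 (11.1%), against 1.64% of the tested genes and 1.81% of all. The element shares its letters TGAC with the antioxidant core searched below. A match is a sequence description, not a bound site. The Dusp1 window is chr17:26508423-26508722, on the minus strand, with the element in capitals.
Dusp1: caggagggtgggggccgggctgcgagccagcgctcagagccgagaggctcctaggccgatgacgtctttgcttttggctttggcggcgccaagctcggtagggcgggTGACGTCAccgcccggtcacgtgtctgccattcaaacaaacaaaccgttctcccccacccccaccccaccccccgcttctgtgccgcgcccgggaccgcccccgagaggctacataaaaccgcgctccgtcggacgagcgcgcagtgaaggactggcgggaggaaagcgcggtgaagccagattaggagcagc

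Targets of p53 read high in all exposed lungs and in 1 of the air lungs. Of 38 listed genes 34 were tested, and 12 were higher in hyperoxia at an unadjusted p under 0.05 with all arrays and 0 lower. The groups did not overlap for 5 that read higher (14.7%) and 1 that read lower (2.94%), against 7.29% and 9.89% of all genes. The median log2 change was 0.38. Without air replicate 3 the counts at an unadjusted p under 0.05 were 16 higher and 0 lower, the median was 0.47, and 3 members were called. Since the array was left out for its p53 level, these calls are not independent of that choice.

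Cdkn1a encodes p21, the p53-induced inhibitor of cyclin-dependent kinases that halts the cell cycle. It read 8589, 6471 and 6329 in hyperoxia, against 848, 839.9 and 6352 in air. Air replicate 3 lay among the exposed lungs, so the groups overlapped. With all arrays the log2 change was 2.07 (SE 0.55, limma adjusted p = 0.9998) and without air replicate 3 it was 3.03 (SE 0.47, limma adjusted p = 0.00995), a ratio of mean intensities of 8.45. Eda2r, a receptor gene of the tumour necrosis factor family, read 773, 612 and 613 in hyperoxia and 64.3, 72.5 and 657 in air (log2 change 1.91, and 2.86 without air replicate 3, limma adjusted p = 0.00995). Zmat3, which encodes an RNA-binding protein of the p53 response, read 1714, 1548 and 1405 in hyperoxia and 502, 478 and 1429.8 in air (log2 change 1.11, and 1.61 without air replicate 3, limma adjusted p = 0.0226). Both followed the same pattern, with air replicate 3 inside or near the exposed range.

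Other members varied in how far air replicate 3 reached. Ccng1, a cyclin gene that p53 induces, read 6635, 6139.8 and 6348 in hyperoxia and 2406, 2411 and 6903 in air, so that air replicate 3 was the highest of the 6. Sesn2, a sestrin that limits mTOR signalling, read 534, 353 and 312 in hyperoxia and 132, 113 and 398 in air, again within the exposed range. Ddit4l, another restraint on mTOR signalling, read 791, 558 and 519 in hyperoxia and 229.7, 172 and 466 in air. It was separate between the groups, with a log2 change of 1.13 (SE 0.33). Mdm2, the gene of the ligase that degrades p53, read 719, 1078 and 1293 in hyperoxia and 512, 597 and 1233 in air, a log2 change of 0.45 with overlapping groups. Hyperoxia replicate 1 was the lowest exposed lung for Mdm2 and the highest for Cdkn1a, Eda2r and Zmat3.

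The promoters of Cdkn1a and Ccng1 are shown because both genes separate the exposed lungs from air replicates 1 and 2 on every array and hold the half-site to which p53 binds. RefSeq promoters were found for 25 of the 34 tested members. A p53 half-site, on either strand, was in a promoter of 10 of the 25 (40%), against 8.49% of the tested genes and 9.55% of all genes with a promoter. In the lines below the half-sites are in capitals. Of 2 Cdkn1a starts in the table the upstream start is shown, since the window of the other holds no half-site. The Cdkn1a window is chr17:29090729-29091028, plus strand, and the Ccng1 window is chr11:40755237-40755536, minus strand.
Cdkn1a: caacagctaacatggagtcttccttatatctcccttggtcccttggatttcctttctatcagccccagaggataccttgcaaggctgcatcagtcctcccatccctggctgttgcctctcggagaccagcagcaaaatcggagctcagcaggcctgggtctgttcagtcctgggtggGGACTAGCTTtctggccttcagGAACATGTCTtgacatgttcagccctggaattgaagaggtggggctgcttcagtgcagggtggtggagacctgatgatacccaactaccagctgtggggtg
Ccng1: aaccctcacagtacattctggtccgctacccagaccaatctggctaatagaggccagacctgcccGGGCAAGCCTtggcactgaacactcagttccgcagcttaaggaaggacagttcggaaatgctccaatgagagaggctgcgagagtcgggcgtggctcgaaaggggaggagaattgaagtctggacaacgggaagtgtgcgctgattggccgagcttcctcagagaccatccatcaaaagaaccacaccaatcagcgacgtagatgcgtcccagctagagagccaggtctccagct

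Targets of NRF2 were also higher in hyperoxia, and air replicate 3 lay in between for several of them. Of 38 listed genes 33 were tested, and 7 were higher at an unadjusted p under 0.05 with all arrays and 0 lower, against 11 and 0 without air replicate 3. The groups did not overlap for 10 that read higher (30.3%) and 1 that read lower (3.03%), against 7.29% and 9.89% of all genes. The median log2 change was 0.32 with all arrays and 0.47 without air replicate 3. The list levels were 0.05, 0.23 and 0.23 in hyperoxia and -0.39, -0.36 and 0.16 in air. Trp53inp1 stands on this list and on that of p53 targets.

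Slc7a11 encodes the cystine and glutamate exchanger that brings in cystine for glutathione synthesis. It read 114, 129.7 and 130.4 in hyperoxia, against 30.5, 36.2 and 71.6 in air, with the groups separate (log2 change 1.10, SE 0.28, and 1.34 without air replicate 3). Gclc, the catalytic subunit of the ligase that starts glutathione synthesis, read 2244, 2399 and 2405 in hyperoxia and 1003, 1033 and 1896 in air (log2 change 0.89, SE 0.30). Both genes were highest in the exposed lungs and intermediate in air replicate 3. Hmox1, which encodes heme oxygenase 1, read 730.0, 1574 and 1511 in hyperoxia and 453, 432 and 803 in air. The groups overlapped, with hyperoxia replicate 1 below air replicate 3 (log2 change 1.12, SE 0.31). Lrp8, a receptor gene of the low density lipoprotein receptor family, read 108, 135 and 103 in hyperoxia and 12.2, 31.04 and 95.3 in air (log2 change 1.12, SE 0.36), so air replicate 3 came close to the exposed lungs. The air values of Slc7a11 and Lrp8 were all under 100.4, so the size of both changes is uncertain. With air set to 100.4, the changes were 0.25 for Slc7a11 and 0.15 for Lrp8.

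Detoxifying enzymes followed. Ephx1, epoxide hydrolase 1, read 2915, 3350.5 and 3152 in hyperoxia and 989, 1013 and 3806 in air, so that air replicate 3 was the highest array. With all arrays its log2 change was 0.99, and without air replicate 3 it rose by 1.62 (limma adjusted p = 0.0496). Gpx2, an epithelial glutathione peroxidase gene, read 205, 443 and 545 in hyperoxia and 40.3, 82.3 and 514 in air, so that air replicate 3 again lay within the exposed range. Classical members such as Nqo1 (log2 change 0.16), Txnrd1 (0.37) and Srxn1 (0.46) stayed above an unadjusted p of 0.05. Of 29 tested antioxidant enzymes, a list that overlaps this one, 1 was higher at an unadjusted p under 0.05 and 0 lower, and the median was 0.02. The groups did not overlap for 1 that read higher (3.45%) and 4 that read lower (13.8%), near the 7.29% and 9.89% of all genes. Leaving out air replicate 3 gave 2 higher and 0 lower, with a median of 0.15. Gsr itself, which encodes a regenerator of reduced glutathione, overlapped between the groups, since air replicate 3 was at the exposed level. Its log2 change was 0.48 (SE 0.18, limma adjusted p = 0.9998), and 0.75 without air replicate 3 (limma adjusted p = 0.187).

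The Lrp8 promoter is shown because the gene was separate between the groups and its window holds the core of the antioxidant response element, the NRF2 site. The core TGACNNNGC, on either strand, was in a promoter of 11 of the 28 NRF2 targets with a RefSeq promoter (39.3%), against 16.8% of the tested genes and 13.99% of all genes with a promoter. It was also in 9 of the 27 immediate early genes (33.3%). The window is chr4:107802635-107802934, plus strand, at the most upstream of 3 starts, with the core in capitals.
Lrp8: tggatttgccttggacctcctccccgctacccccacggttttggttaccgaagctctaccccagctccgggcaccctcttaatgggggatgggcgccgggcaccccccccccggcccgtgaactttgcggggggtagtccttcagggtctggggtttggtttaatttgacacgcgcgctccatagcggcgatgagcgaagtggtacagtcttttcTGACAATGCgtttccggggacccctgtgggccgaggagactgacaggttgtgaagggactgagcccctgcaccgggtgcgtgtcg

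**Figure D2:**
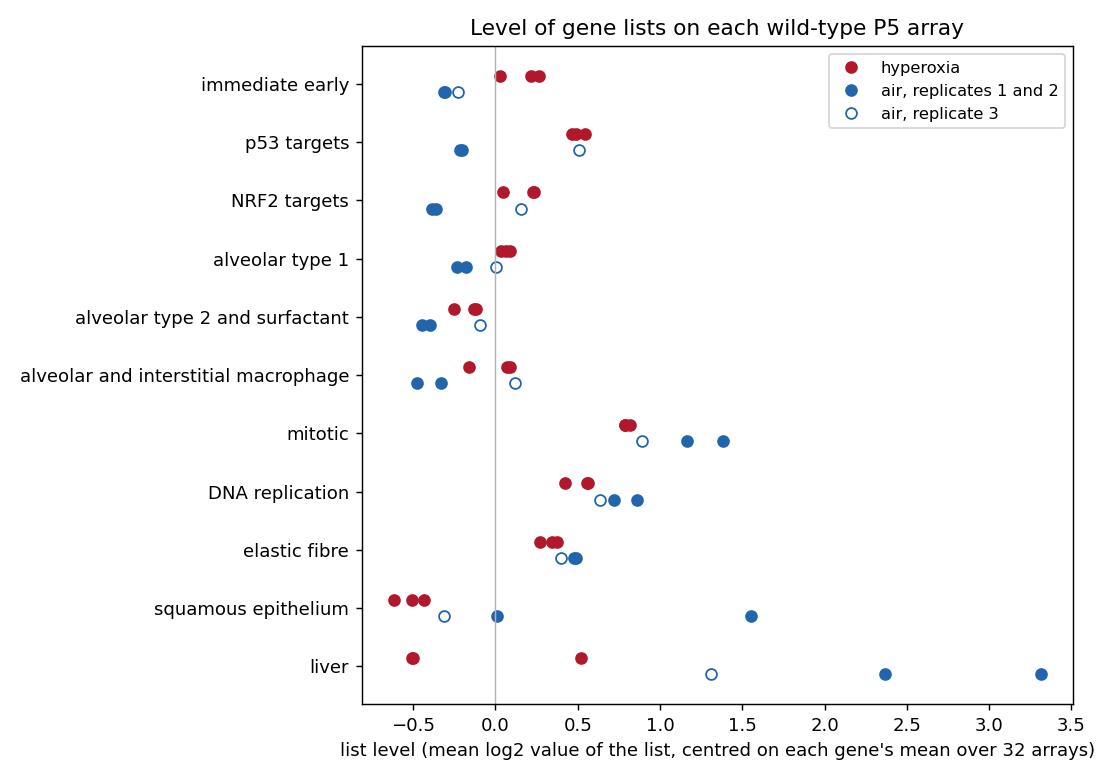
Level of 11 gene lists (mean log2 value, centred on each gene's mean over the 32 arrays) on each hyperoxia array (red, upper row of each pair) and air array (blue, lower row), with air replicate 3 hollow. Air replicate 3 lies with air for the immediate early genes (-0.23), at the exposed level for p53 targets (0.51) and between the groups for liver (1.31) and DNA replication genes (0.64).

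In the other genes called without air replicate 3, that array lay between the groups. Trpv6, a calcium channel gene, read 262, 298 and 281 in hyperoxia and 108, 117 and 232 in air, with the groups separate (log2 change 1.14 without air replicate 3, limma adjusted p = 0.0496, and 0.84 with all arrays). Lgals3, which encodes galectin 3 of macrophages and epithelium, read 6115, 6626 and 6542 in hyperoxia and 2787, 3281 and 5666 in air, also separate (log2 change 1.08 without that array, limma adjusted p = 0.0496, and 0.78 with all arrays). The 7 calls without air replicate 3 were thus Cdkn1a, Eda2r, Zmat3, Ephx1, Chodl, Trpv6 and Lgals3. In a fit of the 5 WT P5 arrays alone 212 genes were called, 103 higher and 109 lower, whereas leaving out any 1 further array of the 5 from the fit to all groups left 0 or 1 gene called.

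Genes of dividing cells read lower in hyperoxia, with small changes per gene. Of 43 tested mitotic genes 42 had a negative log2 change. The groups did not overlap for 19, all lower (44.2%, against 9.89% of all genes). At an unadjusted p under 0.05 there were 3 lower and 0 higher with all arrays, and 7 lower without air replicate 3, and 0 were called. The median was -0.35 with all arrays and -0.48 without air replicate 3. The mitotic level was 0.82, 0.79 and 0.79 in hyperoxia and 1.16, 1.38 and 0.89 in air, so the 3 exposed lungs agreed closely and air replicate 3 was the nearest air lung. Nusap1, a spindle protein gene, read 1266, 1399 and 1252 in hyperoxia and 1632, 1979 and 1590.4 in air (log2 change -0.40, SE 0.19). Ncapg, a condensin subunit gene, read 232, 227 and 228 in hyperoxia and 403, 409 and 249 in air (log2 change -0.54). Top2a, topoisomerase 2 alpha, was at -0.28 and Cdk1, the mitotic kinase, at -0.35, both separate between the groups, whereas Mki67 overlapped at -0.25.

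Of 46 tested DNA replication genes 45 had a negative log2 change. The groups did not overlap for 16 lower (34.8%) and 0 higher, against 9.89% and 7.29% of all genes. None (0) reached an unadjusted p under 0.05, with or without air replicate 3. The median was -0.22 with all arrays and -0.26 without it. Cdc6, which licenses replication origins, read 184, 248 and 278 in hyperoxia and 334, 387 and 319 in air (log2 change -0.52), and Pcna, the polymerase clamp gene, was at -0.24. In a tissue sample, fewer cells of a type and less RNA per cell cannot be told apart. Erythroid precursors divide too, and 5 of 21 tested erythroid genes read lower with the groups separate (23.8%, against 9.89% of all genes). The erythroid median was -0.18, and the part of these genes in the mitotic values was not tested.

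Markers of lung epithelium read slightly higher in hyperoxia in WT. The groups did not overlap for 9 of 27 tested type 1 cell genes that read higher (33.3%) and 1 that read lower (3.70%), against 7.29% and 9.89% of all genes. Of the 27 genes 23 had a positive log2 change, and 1 was higher at an unadjusted p under 0.05, with and without air replicate 3. The median was 0.23 with all arrays and 0.29 without air replicate 3. That gene was Sec14l3, a lipid transfer protein gene, which read 15271, 12261 and 12484 in hyperoxia and 9928, 10722 and 11905 in air (log2 change 0.29). Among the defining markers Ager was at 0.07, Hopx at 0.14, Pdpn at 0.16 and Aqp5 at 0.34. The groups did not overlap for 4 of 29 tested type 2 cell and surfactant genes that read higher (13.8%) and 1 that read lower (3.45%). Of the 29 genes 3 were higher at an unadjusted p under 0.05 and 0 lower, and the median was 0.15. The count was 6 higher and 0 lower without air replicate 3, with a median of 0.26. The surfactant protein gene Sftpa1 read 12483, 13342 and 13224 in hyperoxia and 9469, 10129 and 11662 in air (log2 change 0.33), and Sftpc was at -0.07. In KO the median was -0.02 for type 1 cell genes and -0.12 for type 2 cell genes. These KO medians were 0.02 and 0.07 without KO air replicate 1.

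In the airways, 1 of 21 tested club and secretory genes was higher at an unadjusted p under 0.05 and 0 lower, and the median was 0.21. With air replicate 3 left out, 6 were higher and 0 lower, and the median was 0.32. The gene that passed with all arrays was Aldh1a1, which makes retinoic acid from retinal and read 9992, 10521 and 11115 in hyperoxia and 4519.8, 5812 and 8713 in air, with the groups separate (log2 change 0.78, SE 0.24). The club cell marker Scgb1a1 was at 0.03. Of 18 tested ciliated cell genes 0 reached an unadjusted p under 0.05 and the median was 0.29, against 1 higher and 0.36 without air replicate 3. In KO the median was 0.01 for club and secretory genes and -0.19 for ciliated cell genes.

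For macrophage genes the median log2 change was 0.11 with all arrays, and the groups did not overlap for 1 of 31 tested genes that read higher and 0 that read lower, a smaller share than over all genes (7.29% and 9.89%). Of the 31 genes 3 were higher at an unadjusted p under 0.05 and 0 lower. The count was 9 higher and 0 lower without air replicate 3, with a median of 0.29. Marco, a scavenger receptor gene of alveolar macrophages, read 899.8, 974 and 1049 in hyperoxia and 247, 286 and 922 in air (log2 change 1.21, SE 0.47, and 1.77 without air replicate 3). Ccl6, a chemokine gene of myeloid cells, read 3379.7, 4491 and 4653 in hyperoxia and 1019.9, 1248 and 4279 in air. In both, air replicate 3 alone among the air lungs reached the exposed range. Neutrophil and monocyte genes numbered 2 higher and 0 lower of 24 at an unadjusted p under 0.05, with and without air replicate 3, and their median was 0.13 with all arrays and 0.18 without it. The neutrophil granule gene S100a9 read 5742, 9464 and 11156 in hyperoxia and 3892, 7886 and 4134 in air, and the groups overlapped.

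Fibroblast genes were mixed. Of 36 tested genes 1 was higher and 3 were lower at an unadjusted p under 0.05, and the median was -0.11. The groups did not overlap for 1 higher (2.78%) and 5 lower (13.9%), near the shares of all genes (7.29% and 9.89%). Leaving out air replicate 3 gave 2 higher and 4 lower, with a median of -0.21. Pdgfra, the growth factor receptor of septal fibroblasts, read 1443, 1306 and 1192 in hyperoxia and 3425, 2928 and 1513 in air. Every exposed lung was below every air lung, and air replicate 3 was the nearest (log2 change -0.91, SE 0.35, 95% interval -1.63 to -0.18, and -1.26 without air replicate 3). Higd1b, a pericyte gene, was at -0.47 and Gucy1a1, a subunit of the nitric oxide receptor, at -0.41. Inmt, a methyltransferase gene of lung fibroblasts, read 2277, 3093 and 3129 in hyperoxia and 1824, 1613 and 2061 in air, the opposite direction (log2 change 0.61). Of 17 tested elastic fibre genes 0 reached an unadjusted p under 0.05, and 5 read lower with the groups separate (29.4%, against 9.89% of all genes). The median was -0.16, with elastin itself (Eln) at 0.07. Of 29 tested collagen genes 0 reached an unadjusted p under 0.05, with a median of -0.03. Both counts were again 0 without air replicate 3, and the medians were -0.26 for elastic fibre and -0.07 for collagen genes.

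Endothelial genes showed 2 higher and 0 lower of 35 at an unadjusted p under 0.05, with and without air replicate 3, and a median of -0.08 with all arrays and -0.13 without it. Mmrn2, an endothelial matrix protein gene, read 3795, 3206 and 2987 in hyperoxia and 1475, 1512 and 2674 in air (log2 change 0.86), and Lyve1, a lymphatic receptor gene, read 9707, 9238 and 8548 in hyperoxia and 4662, 4390.1 and 8369 in air (log2 change 0.72). The groups were separate for both genes, with air replicate 3 just under the exposed lungs. The vascular growth factor gene Vegfa, which type 1 cells make in the mouse, was at 0.33 and its receptor Kdr at 0.25, both higher on every exposed array and neither at an unadjusted p under 0.05.

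**Figure D3:**
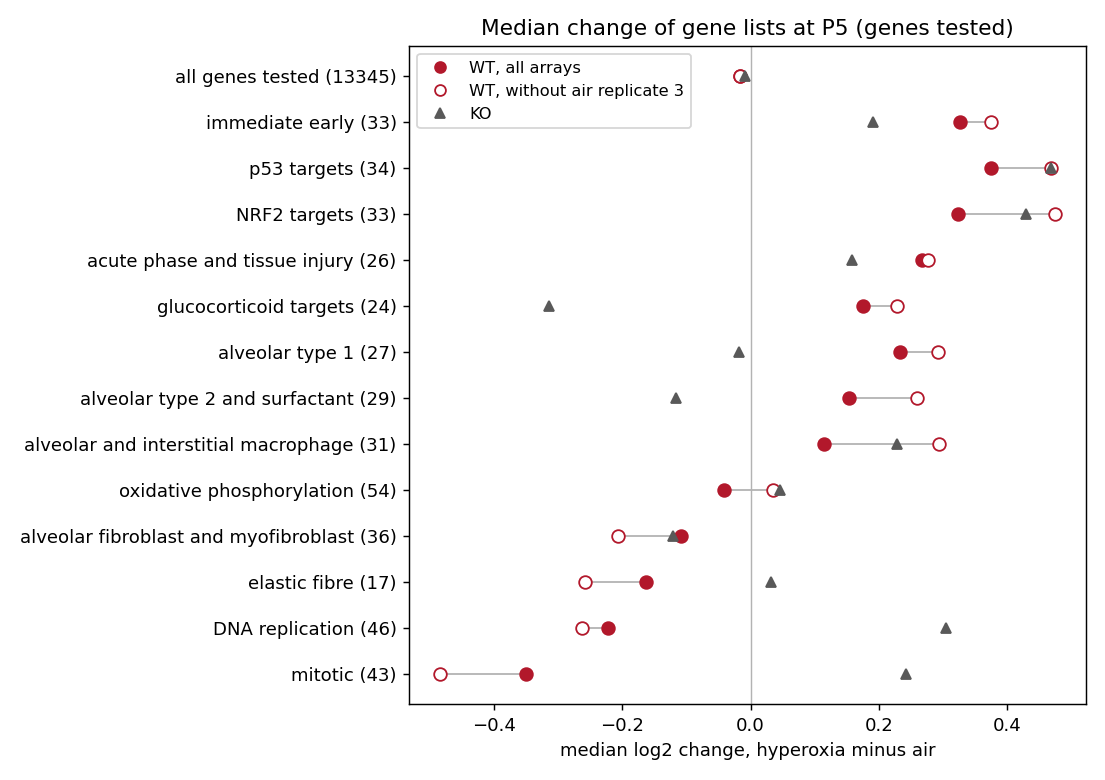
Median log2 change, hyperoxia minus air, of 13 gene lists and of all genes tested, in WT with all arrays (filled circles), in WT without air replicate 3 (hollow circles) and in KO (triangles). The immediate early, p53 and NRF2 lists lie at 0.33, 0.38 and 0.32 in WT with all arrays, and the mitotic and DNA replication lists lie below 0 in WT and above 0 in KO. Without KO air replicate 1 the KO medians of these lists were -0.03 for mitotic (0.24 with all arrays) and 0.05 for DNA replication genes (0.30 with all arrays).

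Medians of the other stress and inflammation lists ran from -0.04 to 0.27. Of 35 tested genes of the integrated stress and unfolded protein response 4 were higher and 0 lower at an unadjusted p under 0.05, with a median of 0.07. Nupr1, a stress-induced chromatin protein gene, read 5381, 5695 and 5476 in hyperoxia and 2443, 2720.2 and 4206 in air, with the groups separate (log2 change 0.86, SE 0.27). Trib3 and Hspa5, further members, were at 0.02 and -0.04. Of 26 tested acute phase and tissue injury genes 3 were higher and 1 lower at an unadjusted p under 0.05, and the median was 0.27. The groups did not overlap for 7 that read higher (26.9%, against 7.29% of all genes). With air replicate 3 left out, the unfolded protein response count was 5 higher and 0 lower and the acute phase count 5 higher and 1 lower, with medians of 0.07 and 0.28. Of 24 tested glucocorticoid targets 3 were higher and 0 lower at an unadjusted p under 0.05, with a median of 0.18. Without air replicate 3 these were 2 higher, 0 lower and 0.23. The groups did not overlap for 8 higher (33.3%) and 1 lower (4.17%), against 7.29% and 9.89% of all genes. The sodium channel subunits Scnn1g and Scnn1a were at 0.61 and 0.60, and Dusp1 belongs to this list too.

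Of 40 tested interferon response genes 1 was higher and 0 lower at an unadjusted p under 0.05, with a median of 0.10. That gene was Mx2, which read 70.1, 43.4 and 67.0 in hyperoxia and 11.6, 16.9 and 16.6 in air (log2 change 1.05), all under 100.4. Leaving out air replicate 3 gave 2 higher and 0 lower, with a median of 0.11. Of 37 chemokine and cytokine genes 3 were higher and 0 lower, with a median of 0.12, against 7 higher, 1 lower and 0.20 without air replicate 3. Osm, a cytokine gene of the interleukin 6 family, read 102, 116 and 112 in hyperoxia and 26.5, 79.0 and 76.9 in air (log2 change 0.71). Of 54 genes of oxidative phosphorylation and 20 of heat shock 0 reached an unadjusted p under 0.05, with medians of -0.04 and -0.01. Both medians were 0.03 without air replicate 3, and 0 and 1 gene reached such a p. HIF targets, which low oxygen induces, numbered 1 higher and 0 lower of 34, with a median of 0.04, with and without that array. Outside these lists the highest changes under the naming rule included Ccdc151, a gene of ciliary dynein docking, at 1.49, and the keratin-associated Krtap17-1 at 1.13, and the air values of Ccdc151 were all under 100.4.

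The lowest changes belonged to transcripts of other tissues. The 12 lowest under the naming rule were Fgb, Fga, Ahsg, Ttr, Serpina1b, Serpina1c and A2m, which encode plasma proteins, the cytochrome P450 genes Cyp2d26 and Cyp2c68, Krt13, Krt4 and Arg1. All 21 tested liver genes read lower in hyperoxia with the groups separate, 17 at an unadjusted p under 0.05, and 0 were called. The median log2 change was -2.65 with all arrays and -2.99 without air replicate 3. Fgb, which encodes the fibrinogen beta chain, read 190.2, 38.7 and 51.6 in hyperoxia and 3438, 1163 and 497 in air (log2 change -3.65, SE 1.15). Alb, albumin, read 3970.1, 1265 and 1226 in hyperoxia and 18312, 11847 and 7286 in air (log2 change -2.65, SE 0.96). In both, the air lungs spread several-fold among themselves, with replicate 1 highest and replicate 3 lowest. These transcripts move with the groups throughout, so their part in the other changes cannot be told apart from the exposure and was not tested. A fit with the liver level as a covariate called 0 genes. The slope of that fit is shared by all groups, and the liver level spread most among WT E19 lungs (-0.69 to 5.78). In that fit 7 p53 targets, 7 NRF2 targets and 6 immediate early genes were higher at an unadjusted p under 0.05, with medians of 0.29, 0.29 and 0.24. The medians were -0.23 for mitotic, -0.11 for DNA replication, 0.12 for type 1 cell, 0.09 for type 2 cell and 0.19 for macrophage genes there, and -1.42 for squamous genes. The p53 and immediate early counts, at 12 and 11 without the covariate, were smaller with it. The mitotic, DNA replication and both alveolar medians lay nearer to 0, a description that does not separate liver transcripts from exposure.

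Squamous epithelium genes varied among the air lungs. Of 17 tested genes 5 were lower and 0 higher at an unadjusted p under 0.05, with a median of -0.96, against 11 lower, 1 higher and -1.32 without air replicate 3. Krt13, a keratin of stratified epithelium, read 23.3, 27.8 and 26.2 in hyperoxia and 2875, 223 and 99.3 in air. Krt4, its partner keratin, read 82.6, 53.2 and 83.4 in hyperoxia and 4052, 336 and 128 in air. The highest values were those of air replicate 1, and without that array the median of the list was -0.18, while Krt13 and Krt4 were at -1.76 and -1.26, against -3.11 and -2.63 with all arrays. Arg1, an enzyme of the urea cycle, read 76.4, 45.6 and 62.5 in hyperoxia and 1059, 192 and 139 in air (log2 change -1.96), again highest in air replicate 1. Of 32 striated and heart muscle genes 0 reached an unadjusted p under 0.05, and the list level was -1.29, 0.01 and 0.69 in hyperoxia and 1.13, 0.06 and -0.31 in air. The count was 2 lower without air replicate 3, and the median was -0.82, against -0.46 with all arrays. Crabp1, a retinoic acid carrier gene, read 193, 154 and 229 in hyperoxia and 614, 543 and 393 in air, lower on every exposed array (log2 change -1.31, SE 0.46).

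The KO lungs gave an independent set of 6 arrays for the same exposure. There limma called 45 genes higher (0.337%) and 1 lower (0.00749%), and at an unadjusted p under 0.05 there were 392 higher (2.94%) and 387 lower (2.9%). Of the 37 genes that were higher in WT at an unadjusted p under 0.01 with the groups separate, 29 (78.4%) had a positive change in KO, against 56.7% of all genes with a positive change in WT, and 10 had an unadjusted p under 0.05 there. Of the 31 that were lower, 24 (77.4%) had a negative change in KO, against 58.7%, and 4 had such a p. These 31 include liver transcripts such as Fgb, Fga and Ahsg. All 17 liver genes at an unadjusted p under 0.05 in WT had a negative change in KO, so this agreement is in part that of another tissue's transcripts. KO arrays stood apart as well: KO hyperoxia replicate 1 had a p53 list level of -0.16, against 0.60 and 0.54 in the other KO hyperoxia lungs, and KO air replicate 1 a mitotic level of 0.19, against 0.95 and 0.99. Without KO hyperoxia replicate 1, or without KO air replicate 1, 33 of the 37 higher genes (89.2%) had a positive change, against 60.9% and 60.3% of all genes with a positive change in WT. Of the 31 lower genes 24 (77.4%) and 23 (74.2%) then had a negative one, against 61.5% and 66.5%.

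By group, the median log2 change in KO was 0.47 for p53 targets, 0.43 for NRF2 targets and 0.19 for immediate early genes. The same medians were 0.59, 0.72 and 0.22 without KO hyperoxia replicate 1, and 0.42, 0.39 and 0.14 without KO air replicate 1. Of the 12 p53 targets with an unadjusted p under 0.05 in WT, 11 had a positive change in KO and 8 an unadjusted p under 0.05 there, and all 7 such NRF2 targets were positive in KO, 4 of them with such a p. Cdkn1a was at 2.07 in WT and 1.93 in KO, and Eda2r at 1.91 in WT and 2.53 in KO (limma adjusted p = 0.0305 in KO). Of the 11 immediate early genes, 8 were positive in KO and 2 had an unadjusted p under 0.05 there. Fos was at 1.30 in WT and 0.24 in KO and Fosb at 1.31 in WT and 0.34 in KO, whereas Egr1 was at 1.29 in WT and 1.09 in KO. None of these differences between the genotypes was called. Pdgfra was at -0.91 in WT and -1.33 in KO. Gsr was at 0.48 in WT and -0.02 in KO.

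**Figure D4:**
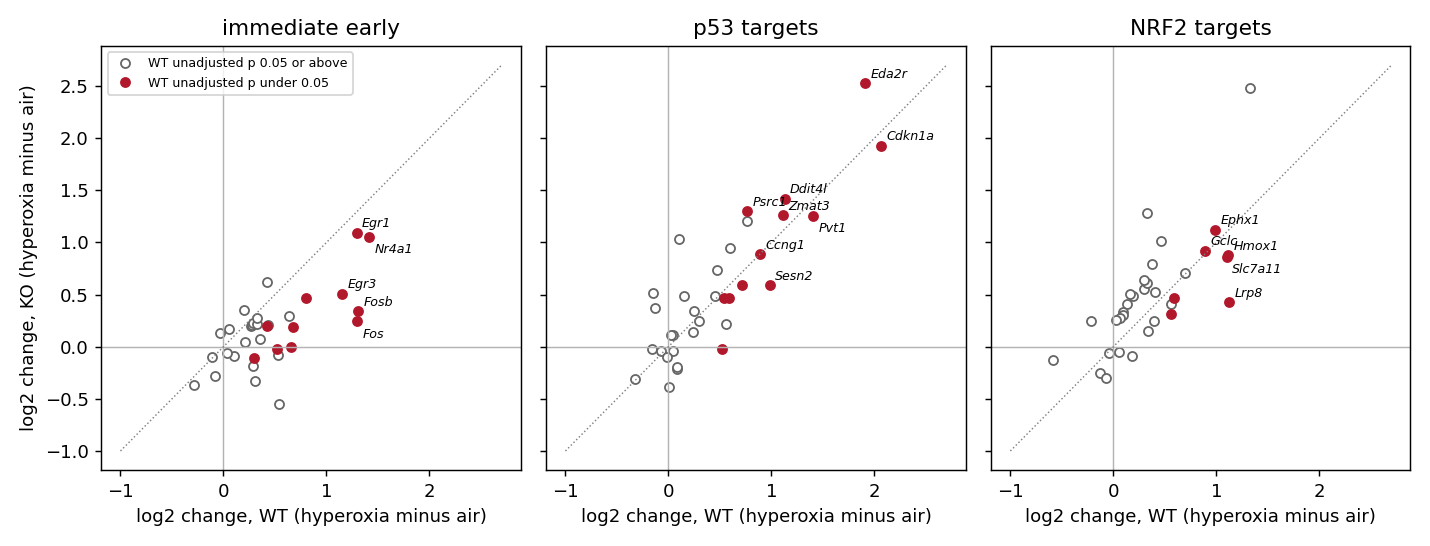
Log2 change, hyperoxia minus air, of each tested member of 3 lists in WT (x axis) against KO (y axis), with genes at an unadjusted p under 0.05 in WT in red and a dotted line of equal change. The p53 target Cdkn1a (2.07 in WT, 1.93 in KO) lies near the line, Eda2r (1.91 in WT, 2.53 in KO) above it, and Fos (1.30 in WT, 0.24 in KO) and Fosb (1.31 in WT, 0.34 in KO) lie below it.

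The test of the difference between the genotypes called 20 genes, all lower in WT than in KO (0.15%), and 34 without WT air replicate 3. The count was 0 in the 12 P5 arrays alone, 6 with WT hyperoxia replicate 1 left out and 7 with WT air replicate 1 left out. The named genes among the 20 were squamous and muscle transcripts. Krt13 was at -3.11 in WT and 5.52 in KO, Krt4 at -2.63 in WT and 5.23 in KO. The squamous level was high in WT air replicate 1 (1.55) and in KO hyperoxia (1.44, 1.85 and 1.32), and lower in WT hyperoxia (-0.62, -0.51 and -0.44) and KO air (-0.28, -0.62 and -0.61). None of the tested p53, NRF2, immediate early, mitotic or DNA replication genes was called for a difference between the genotypes. Mitotic genes had a median log2 change of -0.35 in WT and 0.24 in KO, and -0.03 in KO without KO air replicate 1. For DNA replication genes it was -0.22 in WT and 0.30 in KO, and 0.05 in KO without that array, with 42 of 46 members positive in KO with all arrays and 30 without it.

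Adult WT lungs gave no called gene for the same exposure. At P56 limma called 0 genes between hyperoxia and air, with 385 higher (2.88%) and 296 lower (2.22%) at an unadjusted p under 0.05, and 0 genes for the difference between the P5 and P56 responses, with 372 at an unadjusted p under 0.05. WT P56 hyperoxia replicate 2, the array with the high 3'/5' ratio (2.81), is 1 of the 6 arrays behind these values. Without it 119 genes were higher and 131 lower at such a p at P56, 235 differed between P5 and P56, and 0 were called in either. With array weights, which gave that array 0.0937, limma called 1534 genes for P5 minus P56, 679 higher and 855 lower, against 0 with equal weights. Of 34 p53 targets 0 were higher at P56 and 1 lower at an unadjusted p under 0.05, and the median was -0.08, or -0.0023 with 0 in either direction without WT P56 hyperoxia replicate 2. Cdkn1a was at 2.07 at P5 and 0.28 at P56, Slc7a11 at 1.10 at P5 and -0.04 at P56, and Fos at 1.30 at P5 and 0.07 at P56. The Slc7a11 means at P56 were 46.0 in air and 44.5 in hyperoxia, both under 100.4. Marco was at 1.21 at P5 and 1.34 at P56. Of the 37 genes higher at P5, 26 (70.3%) had a positive change at P56, against 55.7% of all genes with a positive change at P5, and of the 31 lower genes 22 (71%) had a negative one, against 53.1%. Liver transcripts are among these 31, and the median of liver genes at P56 was -0.52. Without WT P56 hyperoxia replicate 2 the counts were 30 of 37, against 60.7%, and 22 of 31, against 51%.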

How the data were processed

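Lung RNA was hybridised to Affymetrix mouse 430_2 arrays. The authors deposited 1 intensity per probe set, on a linear scale, which MAS5 made per the submitters' processing notes, and its version and settings are not given in the sources used here. The labels call the replicates biological, so each array was counted as 1 mouse. Probe sets had to exceed 100.4, the median of the whole table, on 3 or more arrays, and a gene is represented by the brightest of these on average: of 45101 probe sets 27089 were kept, 23428 of them with 1 symbol, giving 13345 genes. An offset of 26.3, the 25th percentile of the table, was added before log2. R 4.3.3 and limma 3.58.1 (eBayes with a variance trend, two-sided, Benjamini-Hochberg over all genes) fitted a mean per group to all 32 arrays, with 22 residual degrees of freedom, and 21 without WT air replicate 3. The fit was tested on simulated data. The comparison, the 41 gene lists and the tests were chosen with earlier results of these data known. Named genes are Gsr, called genes, the 12 highest and 12 lowest changes at an unadjusted p under 0.01 with separate groups, leaving out predicted, clone-named and numbered genes, and per list up to 4 genes of smallest p plus its key genes; Btg2, Csrnp1, Klf6 and Trp53inp1 were chosen after their values were seen. Alternatives changed the filter, offset, scaling, probe set rule, arrays fitted, variance trend, array weights, replicate block and covariates, and, added after seeing the data, left out the arrays of high 3'/5' ratio. RefSeq promoters are of GRCm38.p6, and 84 of 1259 list entries had no probe set of a single gene. The number of arrays limits the precision.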

Additional observations from a re-analysis of the deposited data

Results flagged for a closer look

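For 5 named genes the response to hyperoxia differed between the genotypes in a test of the difference itself (limma, adjusted over all genes). All 5 are squamous epithelium or muscle transcripts. This test called 20 genes in the fit to all arrays, 0 in the 12 P5 arrays alone, 6 without WT hyperoxia replicate 1 and 7 without WT air replicate 1. Krt13 differed by -8.63 on the log2 scale, WT minus KO (SE 1.42, adjusted p = 0.00757), with changes of -3.11 in WT and 5.52 in KO. Krt4, its keratin partner, differed by -7.86 (SE 1.29), and Krt5, the basal cell keratin, by -3.86 (SE 0.79, adjusted p = 0.0334). Cnfn, a gene of the cornified envelope, differed by -2.96 (SE 0.51). Myh8, the perinatal myosin of skeletal muscle, differed by -6.002 (SE 1.19, adjusted p = 0.0257), with 21.2, 267 and 611 in WT hyperoxia and 2293, 181 and 46.5 in WT air. In the WT part of the squamous difference Krt13 read 2875 in air replicate 1, against 223 and 99.3 in the other air lungs. Without that array the WT changes were -1.76 for Krt13 and -1.26 for Krt4, against -3.11 and -2.63 with all arrays.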

How the results depend on the processing

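The counts reported were 1 gene called with all arrays, 7 without air replicate 3, 20 for WT minus KO and 0 for P5 minus P56. The call with all arrays was lost (0 genes) with no filter, a stricter filter, an offset of 0, all kept probe sets in place of 1 per gene, quantile normalization, centring on array medians, the WT P5 or the 12 P5 arrays alone, and the liver or Y-linked level as a covariate, where 332 to 1474 genes had an unadjusted p under 0.05. Without air replicate 3 the 7 calls became 4 with no filter, 3 with an offset of 0, 2 with centring, 88 with the 12 P5 arrays alone (10 higher and 78 lower) and 212 with the WT P5 arrays alone. WT minus KO became 13 with a stricter filter, 7 with an offset of 0, 10 with the Y-linked covariate, 0 with the 12 P5 arrays alone (742 at an unadjusted p under 0.05), and 31 without the WT air and KO hyperoxia arrays singled out by their p53 level, which was chosen after seeing the data, as were the other WT minus KO fits. P5 minus P56 became 2 with an offset of 100. Array weights, which ran from 0.0468 in KO E19 replicate 1 to 10.4 in WT P5 hyperoxia replicate 2, gave 3236 calls with all arrays, 2922 without air replicate 3, 714 for WT minus KO and 1534 for P5 minus P56. The replicate block gave 1 call with all arrays, 0 without air replicate 3 (429 at an unadjusted p under 0.05) and 23 for WT minus KO. The labels do not say whether replicate numbers pair the mice. The correlations of same-numbered deviations were 0.24, -0.06 and 0.28, which cannot decide it, since differently numbered arrays were not compared. Leaving out both arrays of high 3'/5' ratio, added after seeing the data, gave 1 call with all P5 arrays, 11 without air replicate 3, 15 for WT minus KO and 0 for P5 minus P56. Leaving out 1 array gave 0 to 7 calls, 0 to 1 without air replicate 3, and 6 (without WT hyperoxia replicate 1) to 34 (without WT air replicate 3) for WT minus KO. Of 200 list medians under alternatives 195 moved by less than the spread between replicates, 4 moved by more, and that of liver genes turned to 0.0191 with the liver level as a covariate, which by construction removes it. Of 837 values of single genes 778 kept direction and, where tested, side of the threshold, 46 gained a call, 13 lost one and 0 turned. The 13 were those of Chodl. The 837 include other probe sets of the same genes, for which only the direction was compared. The causes of these shifts were not tested. With 3 arrays a group, and 1 unlike its group, the precision limits what these arrays can show, and dim values near the offset have compressed changes.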

Other observations

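Several lists not described above gave these values in WT hyperoxia against air. Of 18 tested clock genes the groups did not overlap for 4 that read higher (22.2%, against 7.29% of all genes). At an unadjusted p under 0.05, 0 were higher and 1 lower, and the median log2 change was 0.16. The lower gene was Hlf, a circadian output transcription factor gene, which read 197, 131 and 141 in hyperoxia and 254, 255 and 175 in air (log2 change -0.47). Without air replicate 3 the clock count was the same and the median 0.12. Of 28 tested genes of lipid and cholesterol synthesis and transport 0 were higher and 1 lower, with a median of -0.13, and the same count with -0.18 without air replicate 3. The lower one was Stard4, a sterol carrier gene, which read 1319.9, 1282 and 1329.5 in hyperoxia and 1871, 1792 and 1394 in air (log2 change -0.35).

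Of 33 tested genes of TGF-beta and BMP signalling 2 were higher and 0 lower, with a median of 0.05, against 2 higher, 1 lower and 0.03 without air replicate 3. Inhbb, the activin beta B subunit, read 746, 706 and 716 in hyperoxia and 459.8, 363 and 578 in air (log2 change 0.62). Of 22 tested lymphocyte genes 0 reached an unadjusted p under 0.05 and 17 had a negative change, with a median of -0.11, and 0 with a median of -0.21 without air replicate 3.

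For glucocorticoid targets the medians were 0.18 in WT and -0.31 in KO, where 7 of 24 were lower and 1 higher at an unadjusted p under 0.05, and 0 of the 24 were called for a difference between the genotypes. The list level was -0.48, -0.31 and -0.25 in KO hyperoxia and 0.59, -0.22 and -0.38 in KO air, with KO air replicate 1 apart from the other KO air lungs. Without that array the KO median was 0.02, with 1 lower and 0 higher. Among them the sodium channel subunit gene Scnn1a was at 0.60 in WT and -0.17 in KO.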
